A study of Mus musculus with 58 samples.

Results

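Tph1, Ddc, Slc18a1 and Tac1, 4 of the 20261 genes with a row in the deposited files, were followed through all 58 samples of a study of mouse small-intestinal organoids. They were chosen by gene symbol, as genes of the enterochromaffin cell and its serotonin and substance P products, with no threshold on a measured value. Earlier results of these data were known when they were chosen. All 4 had a row in every kind of file, and all 4 passed the filter on low counts at 6 h, at 96 h, in the sorted cells and in the summed single-cell libraries.

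The organoids came from the small intestine of mice of strain Bl/6, and RNA was counted by CEL-seq, a method that reads the 3' end of each transcript and so gives values that do not scale with transcript length. Whole organoids were kept for 6 h or 96 h in 6 conditions with 3 libraries each: ENR, the usual culture medium, named for EGF, Noggin and R-spondin; Ei, with the EGF receptor inhibited; Mi, with Mek inhibited; ID, with Wnt and Notch inhibited; and IDE and IDM, which add the inhibition of the EGF receptor or of Mek to ID. A further 14 libraries held Lgr5+ cells from organoids of Lgr5-GFP or Lgr5-DTR mice and Dclk1+ cells from organoids of Dclk1-GFP mice, each in ENR and Ei with 2 libraries, together with 2 libraries of control organoids. The remaining 8 libraries held single cells, 4 from IDE organoids, 2 from IDM, 1 from ENR and 1 from Ei. The labels give no age, number of mice or organoid line, so a p-value here measures the spread between libraries, which may be technical.

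At each time ENR, Ei and Mi carried one library set number and ID, IDE and IDM another. In ID against ENR, IDE against Ei and IDM against Mi the treatment and the set cannot be told apart, and the 6 h and 96 h libraries were normalized separately and not compared by a test. The 6 h libraries held 448292 to 2763423 gene counts each, those of 96 h 158135 to 1738425, and the sorted ones 668893 to 3599554. The shallowest library was Ei replicate 2 at 96 h.

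Enterochromaffin cells are the enteroendocrine cells of the gut epithelium that store and release serotonin, and many of those in the small intestine also make tachykinin peptides. Tph1, tryptophan hydroxylase, carries out the rate-limiting step of serotonin synthesis outside the brain, and Ddc, aromatic L-amino acid decarboxylase, completes it. Slc18a1, the vesicular monoamine transporter VMAT1, loads serotonin into secretory vesicles, and Tac1 encodes the precursor of substance P and neurokinin A. Ddc also acts on other aromatic amino acids, and outside the enteroendocrine cells it is known from absorptive and kidney epithelium.

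In GENCODE M21 (GRCm38) Tph1 (ENSMUSG00000040046.14) lies at chr7:46644641-46672537 on the minus strand and Ddc (ENSMUSG00000020182.16) at chr11:11814101-11898144 on the minus strand. Slc18a1 (ENSMUSG00000036330.12) lies at chr8:69037711-69089235 on the minus strand and Tac1 (ENSMUSG00000061762.12) at chr6:7554879-7565834 on the plus strand. All 4 are annotated as protein-coding genes. RefSeq promoter windows of GRCm38.p6, 250 bases before to 50 after an annotated start, were matched by symbol for Tph1, Tac1 and Ddc. Those of Tac1 and Tph1 are shown because their levels were more alike over the 12 whole-organoid group means than those of any other pair of the 4. The E-box letters CANNTG, the general motif of basic helix-loop-helix factors such as the endocrine regulator Neurog3, are in capitals and all else is in lower case.
Tac1, chr6:7554811-7555110, plus strand: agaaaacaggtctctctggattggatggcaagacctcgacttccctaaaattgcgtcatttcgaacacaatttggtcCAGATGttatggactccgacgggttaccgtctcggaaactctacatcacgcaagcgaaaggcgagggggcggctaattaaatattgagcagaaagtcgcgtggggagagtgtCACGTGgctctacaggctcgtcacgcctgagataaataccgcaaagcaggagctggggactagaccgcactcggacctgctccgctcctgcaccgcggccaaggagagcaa
Tph1 start 1, chr7:46672488-46672787, minus strand: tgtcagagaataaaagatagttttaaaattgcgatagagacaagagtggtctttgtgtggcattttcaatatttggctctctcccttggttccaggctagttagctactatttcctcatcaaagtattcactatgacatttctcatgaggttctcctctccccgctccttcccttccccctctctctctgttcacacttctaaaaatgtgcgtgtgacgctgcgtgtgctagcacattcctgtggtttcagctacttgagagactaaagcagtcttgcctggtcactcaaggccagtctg
Tph1 start 2, chr7:46667328-46667627, minus strand: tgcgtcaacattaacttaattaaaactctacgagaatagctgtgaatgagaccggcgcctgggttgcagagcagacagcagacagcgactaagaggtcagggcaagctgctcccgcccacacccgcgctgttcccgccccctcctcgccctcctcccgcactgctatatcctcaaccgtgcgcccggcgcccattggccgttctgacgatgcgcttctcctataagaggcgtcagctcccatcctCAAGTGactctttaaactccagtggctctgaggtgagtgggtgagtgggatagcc

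On either strand, CANNTG occurred at 2 places in the Tac1 window, at 1 in the window of Tph1 start 2 and at none in that of Tph1 start 1 or in either Ddc window. It was present in 72.3% of the 32851 RefSeq promoter windows of that length. The homeodomain core TAATTA occurred once in the Tac1 window and once in that of Tph1 start 2, against 5.29% of all windows, and in none of the other 3. CCAAT occurred in the Tac1 window, in that of Tph1 start 2 and in that of Ddc start 2, against 37.4% of all windows. These are matches of letters in the windows, and the files hold no binding or chromatin data to set beside them.

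At 96 h all 4 genes were lowest in ENR, and their order over the other treatments differed between genes except that Tph1 and Tac1 shared one. Tph1 and Tac1 reached their highest level in IDM, Ddc in IDE, and the transporter Slc18a1 had like levels in Ei, ID, IDE and IDM. Levels are counts per 1000000 gene counts of the TMM-scaled library size (CPM), and tests are edgeR quasi-likelihood tests with Benjamini-Hochberg adjustment over all genes tested at that time, with a threshold of 0.05. In whole organoids fewer cells of a type and less RNA per cell cannot be told apart.

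Tph1, the rate-limiting enzyme, stood at 17.8, 11.95 and 12.1 CPM in the 3 ENR libraries of 96 h, at 103, 55.8 and 155 in Ei, and at 47.2, 43.3 and 67.1 in Mi. It stood at 232, 167 and 117 CPM in ID, at 240, 304 and 342 in IDE, and at 369, 587 and 501 in IDM. Every treated library was above all 3 ENR libraries, IDM lay above IDE and IDE above ID without overlap, while Mi and Ei overlapped, as did Ei and ID. Against ENR, Tph1 rose 7.60-fold in Ei (log2 fold change 2.93 ± 0.33 SE, adjusted p = 4.0e-08) and 3.76-fold in Mi (1.91 ± 0.31, adjusted p = 2.7e-05). In ID it rose 12.3-fold against ENR (3.62 ± 0.29, adjusted p = 2.2e-11). Against ID it rose a further 1.71-fold in IDE (0.77 ± 0.24, adjusted p = 0.0161) and 2.83-fold in IDM (1.501 ± 0.24, adjusted p = 3.3e-05). The call in IDE was lost without ID replicate 3 (adjusted p = 0.137) and without IDE replicate 3 (adjusted p = 0.0657), and with counts thinned to equal totals (adjusted p = 0.127).

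Ddc, the decarboxylase, stood at 332, 314 and 361 CPM in ENR, at 691, 874 and 682 in Ei, and at 395, 385 and 408 in Mi. It stood at 1084, 1425 and 1151 CPM in ID, at 4105, 4966 and 3796 in IDE, and at 3363, 2055 and 2978 in IDM. No 2 neighbours in the order ENR, Mi, Ei, ID, IDM, IDE overlapped. Ddc rose 2.21-fold in Ei against ENR (1.15 ± 0.19, adjusted p = 3.0e-05) and 3.62-fold in ID (1.86 ± 0.18, adjusted p = 2.0e-09), whereas its difference in Mi of 0.24 ± 0.18 did not pass (adjusted p = 0.388). Mi was below Ei in Ddc by 0.91 ± 0.19 on the log2 scale (adjusted p = 0.00633). Against ID, Ddc rose 3.53-fold in IDE (1.82 ± 0.18, adjusted p = 7.7e-09) and 2.30-fold in IDM (1.20 ± 0.18, adjusted p = 1.4e-05).

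Slc18a1, the vesicle transporter, stood at 31.3, 18.98 and 24.2 CPM in ENR, at 72.1, 105 and 122 in Ei, and at 48.4, 67.97 and 60.5 in Mi. It stood at 113, 101.8 and 94.2 CPM in ID, at 104, 104 and 82.4 in IDE, and at 79.98, 125.9 and 87.2 in IDM. ENR lay below Mi and Mi below the other 4 groups without overlap, and Ei, ID, IDE and IDM overlapped one another. Slc18a1 rose 3.76-fold in Ei (1.91 ± 0.27, adjusted p = 2.5e-06), 2.35-fold in Mi (1.23 ± 0.24, adjusted p = 0.000297) and 4.14-fold in ID against ENR (2.05 ± 0.24, adjusted p = 5.3e-08). The call in Mi was lost with counts thinned to equal totals (adjusted p = 0.150). Against ID the differences were -0.07 ± 0.23 in IDE and -0.05 ± 0.25 in IDM on the log2 scale, and neither passed (adjusted p = 0.863 and 0.928).

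Tac1, the substance P precursor, stood at 35.6, 15.5 and 24.8 CPM in ENR, at 132, 229 and 183 in Ei, and at 67.8, 119 and 118 in Mi. It stood at 257, 148 and 169 CPM in ID, at 165, 222 and 191 in IDE, and at 284, 427 and 284 in IDM. ENR, Mi and Ei did not overlap, IDM lay above every other library of Tac1, and Ei, ID and IDE overlapped. Tac1 rose 6.76-fold in Ei (2.76 ± 0.30, adjusted p = 2.1e-08), 3.98-fold in Mi (1.99 ± 0.28, adjusted p = 2.3e-06) and 7.65-fold in ID against ENR (2.94 ± 0.28, adjusted p = 6.5e-10). Against ID its difference in IDE was -0.00 ± 0.25 (adjusted p = 0.996), and in IDM it rose 1.72-fold (0.78 ± 0.25, adjusted p = 0.0352). That last call was lost without ID replicate 2, ID replicate 3 or IDM replicate 2, with adjusted p up to 0.242, and with DESeq2 (adjusted p = 0.0795).

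**Figure D1:**
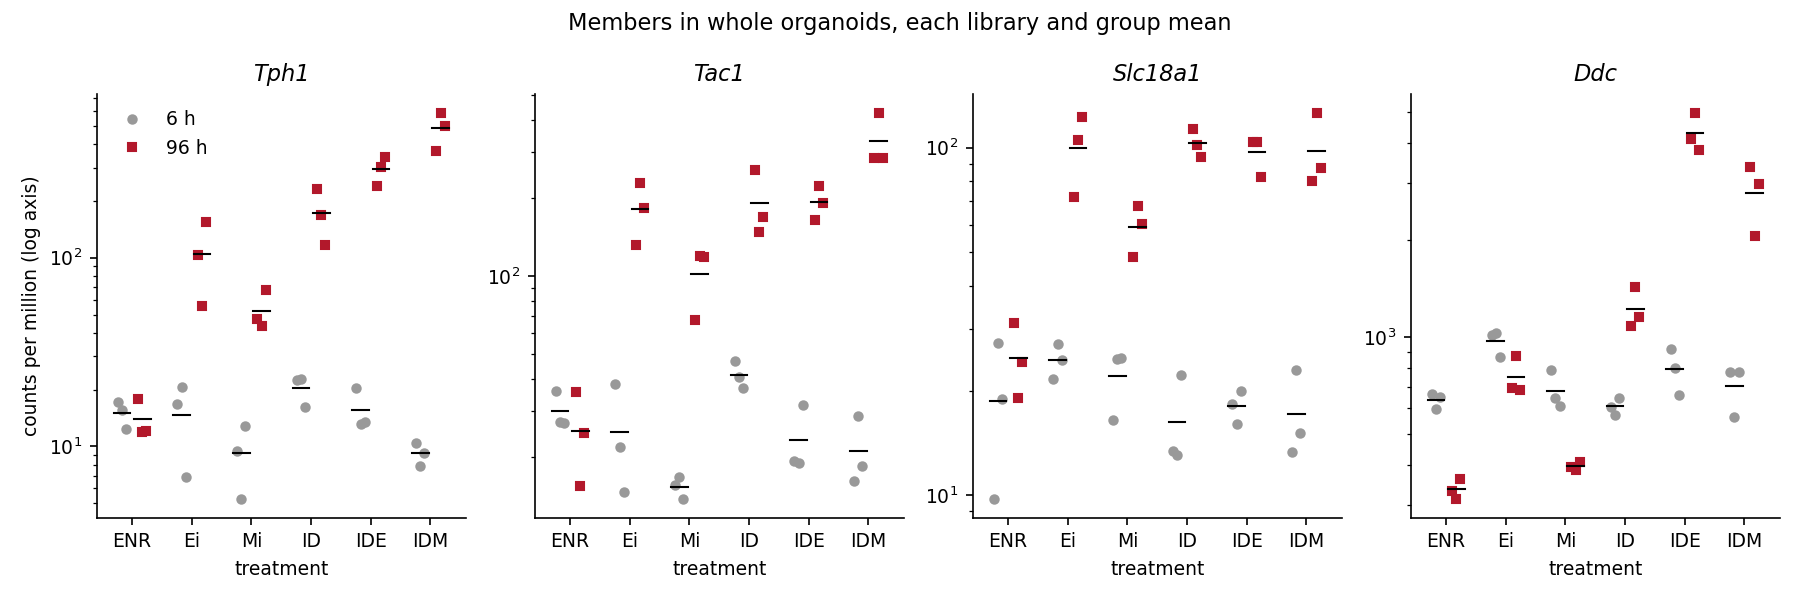
Level of Tph1, Tac1, Slc18a1 and Ddc in every whole-organoid library, in CPM on a log axis that differs between panels, by treatment; grey circles are 6 h, red squares 96 h and bars the group means of 3 libraries. The 3 ENR libraries of 96 h lie below every other 96 h library in each panel, and Ddc alone has its highest levels in IDE, between 3796 and 4966 CPM.

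Among all 8135 genes tested at 96 h, 9.45% rose in Ei against ENR, where 4 of the 4 genes followed here rose. The share of all genes that rose was 11.5% in Mi, where 3 of the 4 did, and 19.7% in ID against ENR, where all 4 did. In IDE against ID 10.8% of all genes and 2 of the 4 rose, and in IDM against ID 5.37% of all genes and 3 of the 4 rose. The median log2 fold change of the 4 was 2.33 in Ei, 1.57 in Mi and 2.49 in ID, beside 0.02, 0.02 and -0.02 over all genes. The 4, and the gene lists used below, were chosen with earlier results of these data known, so such counts are descriptions only.

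Mi and Ei were compared directly, and there 0.996% of all genes were lower in Mi. Ddc was the 1 of the 4 that passed, and the differences of Tph1 (-1.01, adjusted p = 0.131), Tac1 (-0.77, adjusted p = 0.273) and Slc18a1 (-0.68, adjusted p = 0.313) did not pass. Without the filter on low counts and with DESeq2 the lower Tph1 of Mi passed, with adjusted p = 0.045 and 0.0388. In IDM against IDE, where 2.57% of all genes were lower in IDM, Ddc was 1.54-fold lower in IDM (-0.62 ± 0.18, adjusted p = 0.041). Tph1 (0.73 ± 0.23, adjusted p = 0.0589) and Tac1 (0.79 ± 0.25, adjusted p = 0.0608) missed the threshold with IDM the higher, and passed it when edgeR was run without TMM scaling, without the low-count filter or on the compared groups alone. The Ddc call was lost when any 1 of 5 of the 6 libraries was left out and under 3 of the other settings, where its log2 difference lay between -0.56 and -0.45.

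Whether inhibiting the EGF receptor moved a gene by the same amount with and without Wnt and Notch inhibition was tested as the difference of IDE against ID and Ei against ENR, each taken within 1 library set. For Tph1 this difference was -2.15 ± 0.40, for Slc18a1 -1.99 ± 0.35 and for Tac1 -2.76 ± 0.39 on the log2 scale, and all 3 passed (adjusted p = 0.000317, 0.000158 and 4.7e-06; 7.84% of all genes passed in that direction). For these 3 genes the fold change on top of ID was thus smaller than that on top of ENR. The difference for Ddc was 0.67 ± 0.26 and did not pass (adjusted p = 0.081). For Mek inhibition, where 5.8% of all genes passed, the fold change on top of ID was smaller for Slc18a1 (-1.29 ± 0.35, adjusted p = 0.0228) and larger for Ddc (0.96 ± 0.26, adjusted p = 0.0198). The differences of Tac1 (-1.21 ± 0.38, adjusted p = 0.0514) and Tph1 (-0.41 ± 0.39, adjusted p = 0.624) did not pass. The Ddc call for Mek inhibition was lost without ENR replicate 3, ID replicate 1 or IDM replicate 1, and that of Slc18a1 without ENR replicate 2 or 3, Mi replicate 2, ID replicate 1 or IDM replicate 1 or 3, with adjusted p up to 0.0809; the latter was also lost with counts thinned to equal totals (adjusted p = 0.284).

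**Figure D2:**
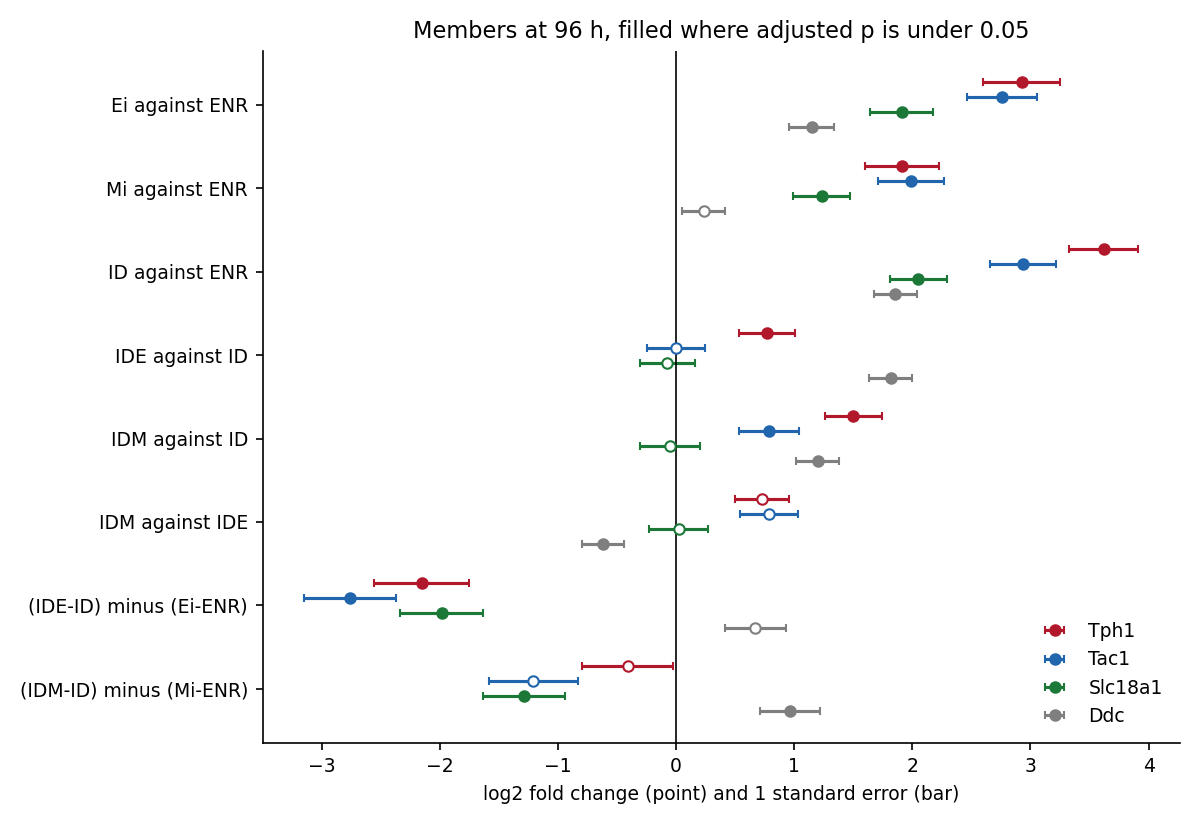
Log2 fold changes at 96 h with bars of 1 standard error for Tph1, Tac1, Slc18a1 and Ddc; filled points passed an adjusted p of 0.05 and open points did not, and the lowest 2 blocks are differences between fold changes. Tph1, Tac1 and Slc18a1 lie to the right of 0 in Ei, Mi and ID against ENR and to the left in the difference between IDE against ID and Ei against ENR, where Ddc is at 0.67.

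Tac1 and Tph1 did not keep the same proportion to each other over the treatments. The number of Tac1 counts per Tph1 count at 96 h was 2.00, 1.29 and 2.05 in the ENR libraries, 1.28, 4.11 and 1.18 in Ei and 1.44, 2.75 and 1.76 in Mi. It was 1.11, 0.882 and 1.45 in ID, 0.685, 0.730 and 0.556 in IDE, and 0.771, 0.728 and 0.568 in IDM. All 6 IDE and IDM libraries lay below the 12 others, and the 4.11 of Ei replicate 2 rests on 9 Tph1 counts. At 6 h the group medians lay between 1.44 and 2.14. Differences of this proportion between groups were given no test, and ID, IDE and IDM share a library set.

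**Figure D3:**
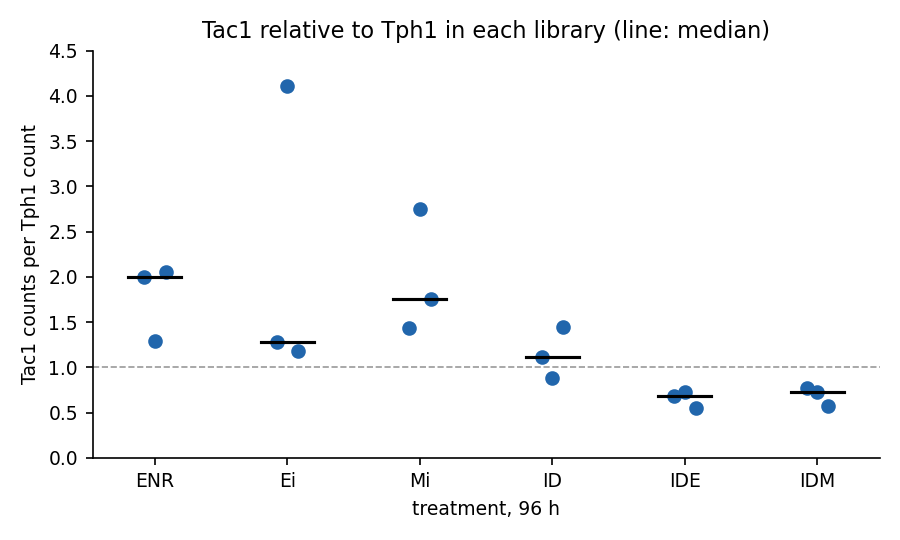
Tac1 counts per Tph1 count in each 96 h library, with a line at each group's median and a dashed line at 1.0. The 6 IDE and IDM libraries lie between 0.556 and 0.771, below all other libraries.

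Marker levels differed between the treatments. The summed level of 7 enteroendocrine markers (Chga, Chgb, Neurod1, Insm1, Scg2, Cpe and Pcsk1n), none of them at 0 throughout, ran from 279 to 385 CPM in ENR, from 2603 to 3041 in Ei, from 1754 to 2076 in Mi, from 2390 to 3895 in ID, from 5224 to 7612 in IDE and from 10440 to 11160 in IDM at 96 h. The summed level of 6 enterocyte markers (Alpi, Fabp1, Apoa1, Apoa4, Sis and Lct), none at 0 throughout, was at most 1155 CPM in ENR, Ei and Mi. It ran from 8177 to 10650 in ID, from 3485 to 5067 in IDE and from 3572 to 4165 in IDM. Against ID, enteroendocrine markers were higher and enterocyte markers lower in both IDE and IDM. Ddc rose in both, and Slc18a1 passed in neither. Chgb weighed heavily in the enteroendocrine sum: its group means alone ran from 271.9 to 8125 CPM over both times. The part of either cell type in the level of the 4 genes was not tested. Mast cells also use Tph1, and neurons use Tac1 and Ddc: of 7 mast cell genes Mcpt1 and Fcer1a were at 0 in all 96 h libraries, Ms4a2 reached at most 7.59 CPM and the sum was mostly Kit, at 46.2 to 52.7 CPM in ENR, 103.4 to 139 in Ei, 89.6 to 114 in Mi, 26.3 to 68.2 in ID, 67.4 to 87.1 in IDE and 79.98 to 129 in IDM. Among 5 neuronal genes (Elavl4, Prph, Ret, Tubb3 and Snap25) none was at 0 throughout, and the sum ran from 5.19 to 9.14 CPM in ENR, from 12.4 to 51.5 in Ei, Mi, ID and IDE, and from 62.2 to 79.7 in IDM. The part of these cell types in the levels was not tested either.

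At 6 h Tac1 fell in Mi against ENR and, against ID, in both IDE and IDM. Tph1 fell only in IDM against ID, and Ddc rose in Ei against ENR. Tac1 stood at 35.9, 27.3 and 26.9 CPM in ENR and at 15.6, 16.7 and 13.8 in Mi, without overlap, and fell 1.95-fold (-0.96 ± 0.30, adjusted p = 0.0173). It stood at 46.98, 40.6 and 36.96 CPM in ID, at 19.3, 18.96 and 31.7 in IDE, and at 16.2, 28.7 and 18.4 in IDM, all 6 below ID. Against ID, Tac1 fell 1.63-fold in IDE (-0.70 ± 0.26, adjusted p = 0.0435) and 1.89-fold in IDM (-0.92 ± 0.27, adjusted p = 0.0134). Each of these Tac1 calls was lost when certain single libraries were left out: without ENR replicate 1 or Mi replicate 3 in Mi, without any 1 of 5 of the 6 libraries in IDE, and without IDM replicate 1 or 3 in IDM.

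Tph1 stood at 22.4, 22.7 and 16.3 CPM in ID at 6 h and at 10.5, 7.90 and 9.20 in IDM, without overlap. It fell 2.19-fold (-1.13 ± 0.35, adjusted p = 0.0186), a call lost without ID replicate 2 or IDM replicate 2 and with DESeq2 (adjusted p = 0.0537). In Mi against ENR the difference of Tph1 was -0.69 (adjusted p = 0.182), and in Ei against ENR it was 0.03. Ddc stood at 664, 598 and 650 CPM in ENR and at 1016, 1031 and 866 in Ei, without overlap, and rose 1.52-fold (0.61 ± 0.14, adjusted p = 0.00124). Slc18a1 had group means between 16.2 and 24.4 CPM, all neighbours in that order overlapped, and none of its 6 h comparisons named here passed.

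Of the 9380 genes tested at 6 h, 13.3% rose in Ei against ENR, where Ddc was the 1 of the 4 that did, and 12.9% fell in Mi against ENR, where Tac1 was the 1 that did. Against ID, 12.5% fell in IDE, where Tac1 was again the 1 that did, and 10.9% fell in IDM, where Tac1 and Tph1 did. In ID against ENR 0.224% of all genes passed and none of the 4, with differences between -0.13 and 0.43 on the log2 scale. The summed enteroendocrine markers lay between 320.0 and 489.6 CPM in all 6 h libraries.

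Other genes of serotonin handling were taken from a list of 15, of which 8 were tested at 96 h beside Tph1, Ddc and Slc18a1. Of these 8, 2 rose and 2 fell in Ei against ENR, 2 fell in Mi, and 4 rose and 1 fell in ID. Over all genes 8.92% fell in Ei, 11.8% in Mi and 18.3% in ID, beside the 9.45%, 11.5% and 19.7% that rose. Maoa, the monoamine oxidase that degrades serotonin, rose in Ei (0.62), in ID against ENR (1.83), and against ID in IDE (0.79) and IDM (0.67), values on the log2 scale as below. Gch1, the first enzyme of the synthesis of the hydroxylase cofactor tetrahydrobiopterin, rose in ID against ENR (1.27) and fell in Mi against ENR (-1.12) and, against ID, in IDE (-0.74) and IDM (-0.999). Qdpr, which regenerates that cofactor, fell in Ei (-0.53) and in ID against ENR (-0.47), and rose against ID in IDE (1.30) and IDM (1.19). Against ID, Gch1 fell and Qdpr rose in both IDE and IDM, in which Tph1 also rose.

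Peptide handling was followed with 4 tested genes of a tachykinin list of 11 beside Tac1, and 3 of these 4 rose in Ei, 4 in Mi and 4 in ID against ENR, where 9.45%, 11.5% and 19.7% of all genes rose. Cpe, the carboxypeptidase that trims peptide precursors, rose by 2.73 in Ei, 2.19 in Mi and 1.87 in ID, and Pam, the amidating enzyme that gives substance P its end, rose by 1.67, 1.55 and 1.56. Against ID, Pcsk1, a prohormone convertase, rose in IDE (0.89) and in IDM (1.46), and Cpe rose in IDM (0.94). Of 10 tested genes of a list of 12 associated with enterochromaffin cells, 7 rose in Ei, 7 in Mi and 9 in ID against ENR, and against ID 3 rose in IDE and 9 in IDM, where 10.8% and 5.37% of all genes rose. Trpa1, the irritant-gated channel of enterochromaffin cells, rose by 3.89 in ID against ENR, by 1.45 in IDE and by 2.48 in IDM against ID. Lmx1a, a transcription factor of that lineage, rose by 1.99 in ID against ENR and by 2.06 in IDM against ID. Adra2a, an adrenergic receptor of these cells, fell by 2.69 in ID against ENR and rose by 2.21 in IDM against ID.

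Over the 12 group means of both times, Chgb, which encodes a granin of secretory granules, had the log2 levels most like those of Tph1 among 10001 genes (Pearson r = 0.985), followed by Tac1 (0.978), Prkag3 (0.976), Ptprn (0.975) and Vim (0.975). For Tac1 the nearest were Tph1, Chgb (0.969), Dlgap1, Map6 and Adarb2 (0.965). Slc18a1 was nearest to F11r (0.976), Bach2, Pgr, Wnt4 and Cpe, and Ddc to Aldh1a1 (0.983), Slc5a4b (0.972), Atp6v1e1, Cndp2 and Akr1c19. Slc18a1 was the gene of rank 143 in likeness to Tph1 (r = 0.932) and Ddc that of rank 882 (r = 0.743). The group means share treatments and library sets and are not independent, so these values describe the likeness only.

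In cells sorted for the stem cell marker Lgr5 or the tuft cell marker Dclk1, Tph1 and Tac1 were at or near 0. Tph1 had 28 and 69 counts in the 2 control organoid libraries, or 6.86 and 18.6 CPM. It had 3 counts over the 4 Lgr5+ libraries in ENR, 2 over the 4 in Ei, and 0 in all 4 Dclk1+ libraries. The organoids were 24.5 times higher than Lgr5+ cells in ENR, with an exact counting interval of 8.13 to 120.7, and at least 8.06-fold higher than Dclk1+ cells in ENR and 13.5-fold higher than those in Ei, taking 3 counts over the group as the floor. These intervals and floors cover counting error only.

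Tac1 had 74 and 221 counts in the control organoids, or 18.1 and 59.6 CPM. It had 10 counts in Lgr5+ cells in ENR, all in 1 library, and 14 counts in 3 of the 4 libraries in Ei, and 0 in all Dclk1+ libraries. The organoids were 22.3 times higher than Lgr5+ cells in ENR (11.97 to 47.04) and at least 24.5-fold higher than Dclk1+ cells in ENR. Slc18a1 had 33 and 46 counts in the organoids, 9 in Lgr5+ cells and 0 in Dclk1+ cells in ENR, and 1 and 15 in the 2 Dclk1+ libraries in Ei. The organoids were 6.64 times higher in Slc18a1 than Lgr5+ cells in ENR (3.33 to 15.1) and at least 6.56-fold higher than Dclk1+ cells in ENR.

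Against the organoids, Tac1 and Tph1 passed as lower in Lgr5+ cells (adjusted p = 0.00237 and 0.0215, with 6.46% of 10325 genes lower), and Slc18a1 did not (adjusted p = 0.0968). In Dclk1+ cells, where 17.1% of genes were lower, Tac1, Tph1 and Slc18a1 did (adjusted p = 0.00376, 0.0250 and 0.0260). Leaving out single libraries lost the Tph1 calls in both cell types and the Slc18a1 call in Dclk1+ cells every time. Of the libraries, control organoid replicate 2 was the one without which the Tac1 calls were lost (adjusted p = 0.135 and 0.0758). With DESeq2 the Dclk1+ calls of Tac1 (adjusted p = 0.0912) and Tph1 (adjusted p = 0.103) were lost as well.

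Ddc was counted in every sorted library, between 22.4 and 64.8 CPM, beside 27.7 and 30.7 CPM in the control organoids. These control organoids were far lower in Ddc than the ENR organoids of 6 h (598 to 664 CPM) and 96 h (314 to 361 CPM). The sets were scaled separately, and the cause of this gap was not tested. A level of Ddc like that of the control organoids is thus not the level of the ENR organoids of 6 h and 96 h. The label of the control organoids names no medium and no time. The log2 differences of Ddc from the control organoids were 0.21 in Lgr5+ cells (adjusted p = 0.782) and 0.33 in Dclk1+ cells (adjusted p = 0.596). Those of Ei against ENR were -0.21 in Lgr5+ cells (adjusted p = 0.776) and 0.49 in Dclk1+ cells (adjusted p = 0.560). None passed, whereas 4.94% and 3.34% of all genes passed in Ei against ENR. The summed enteroendocrine markers reached at most 36.96 CPM in the sorted cells and lay between 105.1 and 172.3 in the organoids. The tuft markers Dclk1, Trpm5, Gfi1b, Alox5ap, Avil, Ptgs1 and Sh2d6 summed to at least 4125 CPM in Dclk1+ cells and at most 246.4 elsewhere. Sh2d6 was at 0 throughout. The 5 stem markers were higher in Lgr5+ cells, at 377.2 CPM or more, than in the organoids, at 284.5 or less. Markers of other cell types were also present. Summed goblet markers (Muc2, Tff3, Spink4, Zg16, Fcgbp, Clca1 and Agr2) ran from 150 to 2355 CPM in Dclk1+ cells in ENR. Paneth markers (Lyz1, Mptx2, Ang4, Itln1 and Mmp7) ran there from 47.7 to 1990 CPM. In Lgr5+ cells of Lgr5-GFP organoids in Ei, Paneth markers ran from 7103 to 7611 CPM, against 3706 to 4180 in the control organoids. The part of other cell types in the Ddc of sorted cells was not tested.

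Single cells showed which of the 4 genes occurred together. Of 768 wells, 396 held at least 1500 transcripts and were kept: 167 from IDE, 84 from IDM, 74 from ENR and 71 from Ei. Each cell was thinned to 1500 transcripts. The labels do not say how single cells were selected. Every library uses the same 96 well barcodes, so barcodes do not identify shared cells. IDM replicate 1 stood apart: 1 of its 21 kept cells had 5 or more transcripts of the granins Chga and Chgb together, against 29.4% to 58.7% of cells in the other 5 IDE and IDM libraries. Of the 251 IDE and IDM cells, Ddc was found in 186 (74.1%), Tph1 in 87 (34.7%), Tac1 in 74 (29.5%) and Slc18a1 in 39 (15.5%). Without IDM replicate 1 the shares were 73.5%, 37.4%, 31.7% and 16.1%.

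By library, Tph1 was found in 38.3%, 26.5%, 28% and 21.7% of cells in IDE and in 4.76% and 55.6% in IDM. Tac1 was found in 31.7%, 26.5%, 28% and 21.7% of IDE cells and in 4.76% and 41.3% of IDM cells. The 2 IDM libraries lay on either side of all 4 IDE libraries for both genes. The mean difference of IDM from IDE was 1.52 percentage points for Tph1 (p = 0.933) and -3.95 for Tac1 (p = 0.667) in a two-sided exact permutation test over libraries, which cannot go below 0.0667 with 4 against 2. On transcripts summed per library, the log2 difference of IDM from IDE was 0.12 ± 0.51 for Tph1, 0.24 ± 0.54 for Tac1, 0.80 ± 0.35 for Slc18a1 and -0.28 ± 0.43 for Ddc. None passed in edgeR, where 0.0% of 5850 genes passed and 109 had an unadjusted p under 0.05, and none of the 4 passed in DESeq2. Of the 74 ENR cells, with a median of 15447 transcripts before thinning, 1 had Tph1, 1 Tac1, 1 Slc18a1 and 8 Ddc, and unthinned 1, 2, 5 and 37 did. Among the 71 Ei cells, with a median of 10264, Tph1 was found in 0, Tac1 and Slc18a1 in 1 each and Ddc in 2, and unthinned in 1, 2, 2 and 19. The ENR and Ei libraries are 1 each and held 1 granin-high cell each.

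Tph1 and Tac1 were found mostly in the same cells. Tac1 was found in 69 of 87 cells with Tph1 (79.3%, exact 95% interval 69.3 to 87.3) and in 5 of 164 without it (3.05%), and 69 of the 74 Tac1 cells (93.2%) had Tph1. Unthinned, the shares with Tac1 were 71.2% of 118 cells with Tph1 and 14.3% of 133 without. By library the count was 18 of 23, 8 of 9, 11 of 14 and 5 of 5 in IDE, and 1 of 1 and 26 of 35 in IDM, so the majority held in every library. Slc18a1 was found in 32.2% of cells with Tph1 and 6.71% of those without, and Ddc in 93.1% and 64.02%. All 4 genes were found in 25 cells, Tph1, Tac1 and Ddc without Slc18a1 in 41, and all 66 of these were granin-high. Ddc alone was found in 93 cells, of which 6 were granin-high. Intervals here cover counting error, and cells of a library share its depth and treatment.

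**Figure D4:**
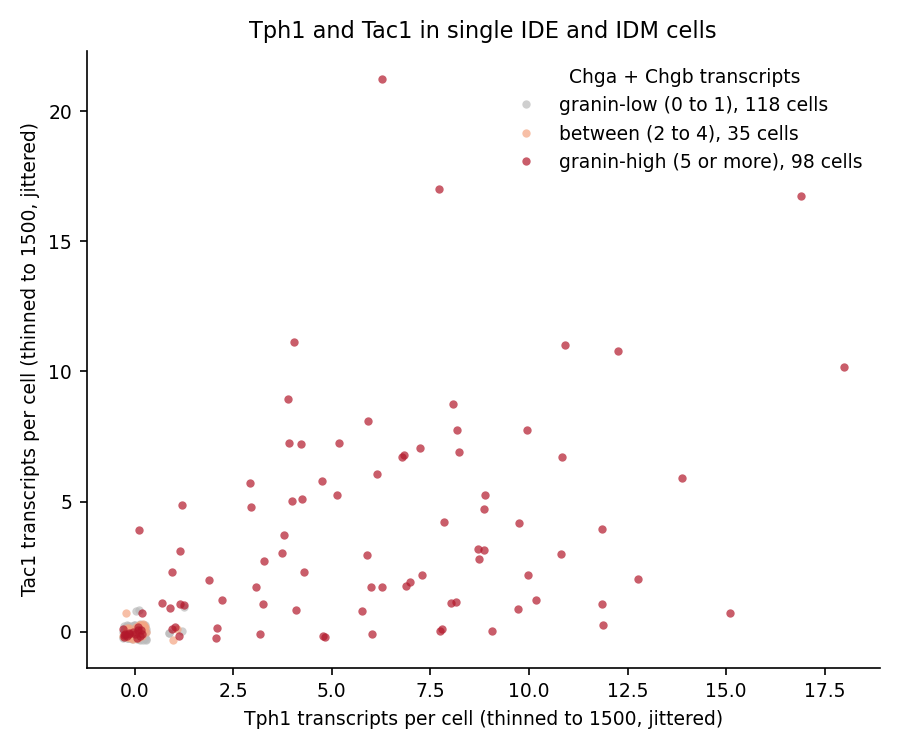
Tph1 against Tac1 transcripts in each of the 251 IDE and IDM cells, thinned to 1500 transcripts and jittered, coloured by the summed transcripts of Chga and Chgb. Cells with several transcripts of either gene are almost all granin-high, and the granin-low cells lie at or near 0 for both.

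Dividing the cells by granins separated Tph1, Tac1 and Slc18a1 from Ddc. Among 98 granin-high cells, with 5 or more transcripts of Chga and Chgb, Tph1 was found in 82.7%, Tac1 in 71.4%, Slc18a1 in 30.6% and Ddc in 90.8%. Among 118 granin-low cells, with at most 1, the shares were 3.39%, 2.54%, 3.39% and 63.6%. The median number of transcripts before thinning was 3661.5 in the granin-high and 7138.5 in the granin-low cells. Unthinned, the shares in the same order were 84.7%, 81.6%, 55.1% and 94.9% of granin-high and 21.2%, 15.3%, 25.4% and 90.7% of granin-low cells. A gate on enterocyte markers within the granin-low cells held 48 cells, with a median of 11170 transcripts. After thinning, Slc18a1 was found in 1 of them and Tph1 and Tac1 in 0. That allows up to 6.25% of cells with a transcript at that depth and sets no limit on expression. Since only granin-low cells were gated, low values of the endocrine genes follow in part from the gate itself. Ddc was found in 35 of the 48 (72.9%). Unthinned, and so at unlike depths, 12 of the 48 had Tph1, 11 Tac1, 19 Slc18a1 and 47 Ddc. The means in that order were 0.292, 0.271, 0.75 and 15.98 transcripts per cell, against 14.3, 9.15, 1.36 and 9.64 in granin-high cells. The mean of Ddc after thinning was 1.67 transcripts per cell in the 48 and 3.28 in the granin-high cells. In 14 granin-low cells gated on goblet markers Ddc was found in 3.

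**Figure D5:**
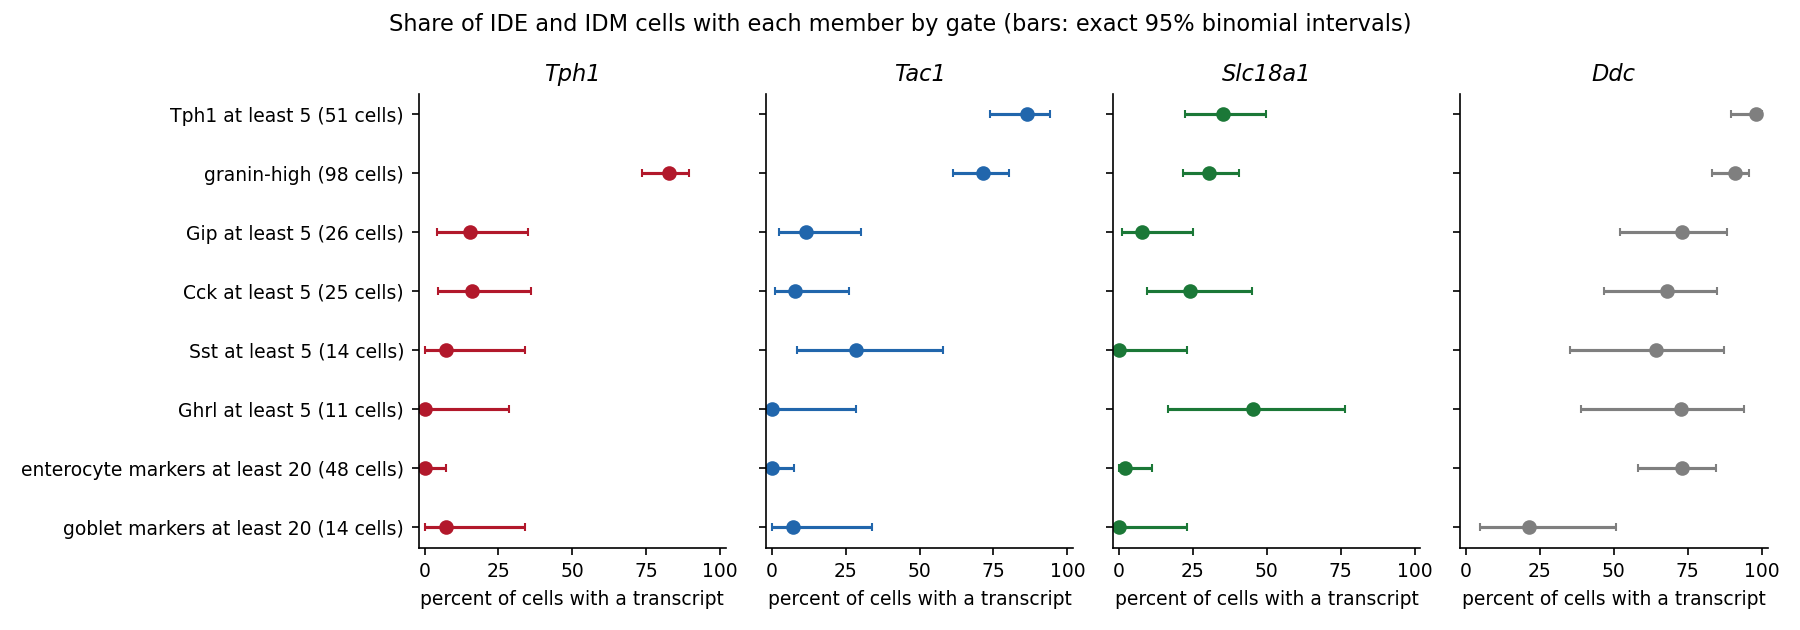
Share of IDE and IDM cells in which each of the 4 genes was found, by gate, with exact 95% binomial intervals; gates overlap, Tph1 has no point in the gate that Tph1 itself defines, and n is given beside each gate. The enterocyte and goblet gates took granin-low cells only. After thinning Tph1 and Tac1 are at 0 in the 48 enterocyte-gated cells and Ddc is at 72.9%.

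Of the 51 cells with 5 or more Tph1 transcripts, 44 had Tac1 (86.3%), 50 had Ddc (98.0%) and 15 had Ucn3, urocortin 3 (29.4%). None of the 51 had 5 or more transcripts of Gip, Sst, Cck, Gcg, Pyy, Sct or Ghrl, while 2 had 5 or more of Ucn3 and 1 of Cartpt. At least 1 transcript of Sst was found in 26 of the 51, of Cck in 19 and of Gcg in 19, with means of 0.882, 0.569 and 0.588 per cell. In the 48 enterocyte-gated cells these hormones were found in 18, 5 and 6, with means of 0.583, 0.104 and 0.188. Each was found in 3 of the 14 goblet-gated cells. Both gates hold granin-low cells, so low counts of these hormones were not confined to granin-high cells. From the other side, Tph1 was found in 4 of 26 cells with 5 or more Gip transcripts, in 4 of 25 with Cck, in 1 of 14 with Sst, in 1 of 8 with Gcg and in 0 of 11 with Ghrl. Slc18a1 was found in 5 of the 11 Ghrl cells, and Tac1 in none of them and in 4 of the 14 Sst cells.

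Across the 251 cells, Chga (r = 0.863), Chgb (0.861), Tac1 (0.792), Gstt1 (0.774) and Reg4 (0.772) had log2 levels most like Tph1 among 3549 genes. For Tac1 they were Chga (0.798), Tph1 (0.792), Chgb (0.767), Atf6 (0.736) and Reg4 (0.723). For Slc18a1 the nearest was Pak3 at 0.421, and for Ddc it was Tph1 at 0.490. The cells share libraries and were thinned to 1 depth. Slc18a1 had few transcripts per cell, and its low correlations are not read further.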

How the data were processed

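Whole-organoid and sorted-cell files hold read counts per gene, deposited by the authors unnormalized. Per the submitters' processing notes BWA 0.6.2-r126 and mm10 were used, and the counter and annotation are not given in the sources used here. The single-cell files hold, as their authors deposited them, numbers of transcripts per gene and well that are mostly not whole. Their values follow the usual correction of molecular identifier counts for collisions, which no source used here states, and they were rounded here.

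Rows that name no gene were left out of library sizes and held 5.12% to 14.6% of a single-cell library. Each of 6 h, 96 h and the sorted set was fitted as a whole with edgeR 4.0.16 (R 4.3.3): TMM scaling, filterByExpr, quasi-likelihood tests of contrasts between groups and Benjamini-Hochberg adjustment. Single-cell transcripts were summed per library for the same test, and shares of cells were compared by an exact permutation test over libraries. Cells with fewer than 1500 transcripts were dropped, and the rest were thinned to 1500. Doublets were not called.

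On data simulated for ID against ENR at 96 h, with 8135 genes, the fit recovered 43% of 2-fold and 91% of 4-fold changes, and 6.29% of its calls were false. In that simulation 100 genes were changed 2-fold and 100 changed 4-fold in ID, and all others had the same mean in every group. In the real comparison 19.7% of genes rose and 18.3% fell, so these rates need not hold there.

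Beyond the 4, genes were named from the lists of serotonin, tachykinin, enterochromaffin and hormone genes and of cell type markers, or as the 5 genes most like 1 of the 4. The 4 genes and the lists were chosen with earlier results of these data known. The gates on enterocyte, goblet and hormone genes, their unthinned values and the shares without IDM replicate 1 were chosen after seeing the data. The enterocyte and goblet gates took granin-low cells with at least 20 marker transcripts. Of the enterocyte and neuronal marker lists 1 gene each is not reported here, and the sums and the enterocyte gate were computed without it. Likeness used genes with a mean of at least 10 CPM in 1 or more groups, on log2(CPM + 1).

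Replicates correlated across genes at 0.936 to 0.973 at 6 h, 0.813 to 0.975 at 96 h and 0.802 to 0.968 in the sorted set, and none were identical. Sequences are from RefSeq (GRCm38.p6) and gene positions from GENCODE M21. Alternatives were DESeq2 1.42.0, no TMM scaling, no low-count filter, a replicate block, the compared groups alone, counts thinned to equal totals, and each library left out in turn.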

Additional observations from a re-analysis of the deposited data

Results flagged for a closer look

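For Tph1, Slc18a1 and Tac1 the effect of inhibiting the EGF receptor at 96 h differed by a direct test between organoids with and without Wnt and Notch inhibition. The log2 difference of IDE against ID and Ei against ENR was -2.154 for Tph1, -1.985 for Slc18a1 and -2.761 for Tac1. All 3 kept their direction and passed under every alternative fit that was run, each library left out included.

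The effect of Mek inhibition differed in the same test for Ddc, by 0.96, and for Slc18a1, by -1.29. These calls were less stable. Leaving out 1 library lost the Ddc call in 3 of 12 fits and the Slc18a1 call in 6 of 12. In edgeR with counts thinned to equal totals the Slc18a1 call was also lost (adjusted p = 0.284). No share of cells in the 4 IDE single-cell libraries stood apart from the other 3 by Dixon's ratio of gap to range. With 4 values that rule can flag little and does not show that the libraries were alike. The share of cells with Ddc ran from 58.8% to 91.3% over them.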

How the results depend on the processing

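At 96 h the rises of Tph1, Tac1, Slc18a1 and Ddc in Ei and ID against ENR, those of Tph1, Tac1 and Slc18a1 in Mi, and the smaller effects of EGF receptor inhibition on top of ID kept direction and call in every alternative, other than Slc18a1 in Mi with counts thinned to equal totals (1.02). Over all alternatives other than leaving out a library, 361 values kept direction and call, 20 changed sign, 18 came to pass, 11 no longer passed and 6 moved. With a library left out the numbers were 396, 32, 10 and 46, with none moved. In each case below the cause was not tested, and values are log2 differences unless named otherwise.

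Without TMM scaling, the 6 h values were -0.031 for Tph1 in Ei against ENR, 0.38 for Ddc in IDE against ID, now past the threshold, and -0.031 for Slc18a1 in IDM against ID. The 96 h values were -0.45 for Ddc, 0.95 for Tac1 and 0.89 for Tph1 in IDM against IDE, and -1.28 for Tac1 in the difference of Mek effects. In Lgr5+ cells Ddc was at -0.24 and Slc18a1 passed (adjusted p = 0.0340). With DESeq2, Tph1 was at -0.0034 in Ei against ENR and -1.15 in IDM against ID, and Tac1 at -0.77 in IDE against ID, at 6 h. At 96 h Tph1 was at -1.04 in Mi against Ei and Tac1 at 0.80 in IDM against ID, and in Dclk1+ cells Tac1 (adjusted p = 0.0912) and Tph1 (adjusted p = 0.103) did not pass. DESeq2 gave no adjusted p for Tph1, Tac1 and Slc18a1 in ID against ENR at 6 h and in Lgr5+ cells. Without the low-count filter, the 96 h values were -0.96 for Tph1 in Mi against Ei, 0.029 for Tac1 in IDE against ID, -0.065 for Slc18a1, 0.70 for Tac1 and 0.65 for Tph1 in IDM against IDE, 0.86 for Ddc in the difference of EGF receptor effects and -1.175 for Tac1 in that of Mek effects.

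Fitting the compared groups alone gave 0.38 for Ddc in IDE against ID at 6 h, and at 96 h 0.012 for Tac1 in IDE against ID and, in IDM against IDE, -0.56 for Ddc, 0.84 for Tac1 and 0.78 for Tph1. In Lgr5+ cells Slc18a1 passed (adjusted p = 0.00643). With counts thinned to equal totals, the 96 h values were 0.65 for Tph1 in IDE against ID, -0.56 for Ddc and 0.995 for Tac1 in IDM against IDE, and -1.155 for Slc18a1 in the difference of Mek effects. With the replicate number as a block, Ddc in IDE against ID at 6 h (0.36) and Tac1 in the difference of Mek effects (-1.22) came to pass, and the single-cell differences of IDM from IDE became 0.13 for Ddc, -0.57 for Tac1 and -0.35 for Tph1. The block changed no other call. Deviations of same-numbered libraries correlated at -0.10 to 0.17, never all over 0.1 in a comparison, so the numbers were not taken as pairs.

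The share of cells, IDM minus IDE in percentage points, was -4.06 for Tph1 unthinned and -0.23 with at least 3 transcripts; 7.20 for Tac1 at a depth of 3000; 4.60 for Slc18a1 at 1000, 13.9 at 3000, 9.01 unthinned and 1.88 with at least 3 transcripts; and for Ddc -3.71 at 1000, -0.49 at 3000 and -6.84 with at least 3 transcripts. With at least 3 transcripts, 61.2% of Tph1 cells had Tac1, 4.48% Slc18a1 and 71.6% Ddc. Unthinned, 51.7% of Tph1 cells had Slc18a1 and 97.5% Ddc, and 81.55% of Tac1 cells had Tph1.

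With each library left out, the 6 h values ran from -0.39 to 0.35 for Tph1, and in Mi against ENR from -0.027 to 0.16 for Ddc, -0.0625 to 0.59 for Slc18a1 and -1.04 to -0.82 for Tac1. Slc18a1 in ID against ENR ran from -0.47 to 0.21. In IDE against ID the ranges were 0.26 to 0.49 for Ddc, -0.091 to 0.47 for Slc18a1 and -1.08 to -0.58 for Tac1, and in IDM against ID -0.24 to 0.38 for Slc18a1, -1.22 to -0.79 for Tac1 and -1.315 to -0.99 for Tph1. At 96 h they were -1.23 to -0.77 for Tph1 in Mi against Ei; in IDE against ID -0.14 to 0.014 for Slc18a1, -0.14 to 0.27 for Tac1 and 0.54 to 1.08 for Tph1; and in IDM against ID -0.29 to 0.056 for Slc18a1 and 0.56 to 1.06 for Tac1. In IDM against IDE they were -0.78 to -0.43 for Ddc, -0.22 to 0.12 for Slc18a1 and 0.57 to 0.87 for Tph1. For the difference of EGF receptor effects Ddc ran from 0.60 to 0.84, and for that of Mek effects Ddc ran from 0.86 to 1.22, Slc18a1 from -1.475 to -1.12 and Tac1 from -1.51 to -0.93.

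In Lgr5+ cells against organoids the adjusted p ran from 0.00239 to 0.135 for Tac1 and from 0.0784 to 0.510 for Tph1, and in Dclk1+ cells from 0.0696 to 0.138 for Slc18a1, from 0.00539 to 0.0758 for Tac1 and from 0.0728 to 0.263 for Tph1. The single-cell differences ran from -2.785 to 0.98 for Tac1 and from -2.07 to 0.85 for Tph1, both lowest without IDM replicate 2, and the share differences from -23.9 to 26.9 points for Tph1, -22.2 to 14.3 for Tac1, -5.11 to 4.41 for Slc18a1 and -3.67 to 7.15 for Ddc. With 1 IDM library left, that library is assumed to vary like the IDE ones. Depth limits Tph1, Tac1 and Slc18a1: Ei replicate 2 at 96 h holds 9 Tph1 counts, and the sorted cells held few counts of the 3.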

Other observations

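Among granin-high IDE and IDM cells, 68 of the 81 with Tph1 also had Tac1, and the other 13 did not. These 13 had a mean of 4.85 Tph1 transcripts, against 6.79 in the 68. Fev, a transcription factor of serotonin-producing cells, was found in 76.9% of them against 97.1%, Lmx1a in 38.5% against 66.2%, Trpa1 in 23.1% against 42.6% and Slc18a1 in 15.4% against 36.8%. Among the 13 these shares stand for only 10, 5, 3 and 2 cells. Shares were alike for Ucn3 (23.1% against 25%), Gch1 (38.5% against 42.65%), Pcsk1 (46.15% against 44.1%) and Gcg (38.5% against 38.2%). Cck, the hormone cholecystokinin, was found in 53.85% of the 13 and 38.2% of the 68. Its means of 5.15 and 1.72 transcripts lay well above its medians of 1 and 0. Ddc was found in all 13 and in 97.1% of the 68. The 13 were chosen by their Tac1 value, which is low in cells with less Tph1, and no test was made. Of the 13, 5 came from IDE and all others from IDM replicate 2, whereas most of the 68 came from IDE. Library and Tac1 status are thus partly mixed in these shares.

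Ucn3, the peptide urocortin 3, was found in 20 of the 87 cells with Tph1 (22.99%) and in 2 of the 164 without it (1.22%). At 96 h Ucn3 rose by 4.11 on the log2 scale in ID against ENR.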
